A study of Mus musculus with 24 samples.

Results

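The genes described are those that build ribosomes, together with the transcription factor genes Myc and Mycn. They were chosen by name, as 36 gene symbols, and every array probe annotated with one of these symbols was taken. Of the 36 genes, 33 had at least 1 probe and together they had 51 probes, out of 46643 probes and 19406 symbols in the whole series. Dkc1, Npm3 and Wdr43 had none and are named here only. The remaining genes cover the MYC family (2 genes), transcription of ribosomal DNA (2), the box C/D and box H/ACA small nucleolar ribonucleoproteins (3 of each), nucleolar chaperones and organisers (3), nucleolar GTPases (3), the PeBoW complex (3), assembly of the small ribosomal subunit (6) and assembly of the large subunit (8).

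RNA was profiled from the left and right sides of the heads of (C3H/HeH x 101/H)F1 mouse embryos. The labels name the tissue brain, whereas the methods of the study describe whole heads that were cut from the body and divided at the midline, so tissue other than brain can be present. The embryos were taken at 3 stages, labelled E8.5, E10.5 and E12.5 by the days post coitum (dpc). Each stage was represented by 4 embryos, and each side of an embryo by 1 array of an Illumina WG-6 BeadChip, giving 24 arrays. A BeadChip holds several arrays, on which beads carry a probe for each transcript. All embryos were of this F1 background, and no mutation or treatment is named for any of them. Stages therefore differ between embryos, whereas left and right are compared within an embryo. Values are probe intensities after background subtraction, quantile normalised here, and a signal in the text averages both sides of an embryo unless a side is named.

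A ribosome is made mostly in the nucleolus. RNA polymerase I transcribes the ribosomal DNA into a long precursor RNA, small nucleolar ribonucleoproteins guide its chemical modification, and helicases, GTPases and assembly factors fold and cut it into the RNA of the small and large subunits. The MYC proteins bind DNA as partners of MAX, classically at the E-box sequence CACGTG, and many genes of this pathway are known MYC targets, so that growing and dividing cells usually express them strongly.

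A gene was measured by its brightest probe. For 23 of the 33 genes this probe had a mean signal of at least 50 over the 24 arrays (209.6 to 7169). For the other 10 (Myc, Mycn, Npm1, Gnl2, Wdr12, Tsr1, Bysl, Rrs1, Nop16 and Ftsj3) it lay below 50, from -29.9 to 36.7, and these are called dim. On a dim probe a change of the transcript can remain unseen, and 6 of the dim genes had a mean signal below 0. Because a constant of 119.5 was added to every intensity before the log2 transformation, a log2 fold change (log2FC) understates the change of a weak probe. Levels of different probes are not compared. In tissue dissected whole, fewer cells of a type and less RNA per cell cannot be told apart.

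The arrays fell into 4 sets of 6, defined by side and by embryos 1 and 2 or embryos 3 and 4, and each set held all 3 stages. The mean log2 level of the 23 brighter genes deviated from that of the stage by 0.02 on the left and 0.08 on the right in embryos 1 and 2, and by 0.06 on the left and -0.17 on the right in embryos 3 and 4. The sets were therefore also fitted as a block and one at a time. Calls gained in these fits are given with some of the genes, and calls lost within single sets are given at the end. Whether the sets correspond to BeadChips is not given in the sources used here.

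Of the 36 genes, 29 had a promoter in the RefSeq table (build GRCm38.p6), taken from 250 bases before to 50 bases after the annotated start of transcription. CACGTG, which reads the same on both strands, was present in the promoters of 5 of these 29 genes (17.2%), namely Nop2, Ltv1, Pes1, Tsr1 and Wdr43, and in those of 8.1% of all 27025 genes in the table. Of the 18 genes with a promoter that were lower at E12.5 than at E8.5, 2 held it, and of the 8 other measured genes 2 held it. The promoters of 4 genes are shown 5′ to 3′ with CACGTG in capitals. Nop2 (chr6:125131633-125131932, plus strand), Ltv1 (chr10:13193088-13193387, minus strand) and Pes1 (chr11:3963725-3964024, plus strand) are the genes with a bright probe that held the motif, and they took different courses. Ddx21 (chr10:62602249-62602548, minus strand) showed the largest fall and held none.
Nop2: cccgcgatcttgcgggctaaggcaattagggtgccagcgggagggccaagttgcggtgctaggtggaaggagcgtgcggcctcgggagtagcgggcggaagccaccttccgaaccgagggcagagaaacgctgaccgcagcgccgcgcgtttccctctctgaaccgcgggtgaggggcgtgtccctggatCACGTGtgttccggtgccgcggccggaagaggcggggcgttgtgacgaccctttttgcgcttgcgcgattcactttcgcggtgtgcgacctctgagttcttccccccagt
Ltv1: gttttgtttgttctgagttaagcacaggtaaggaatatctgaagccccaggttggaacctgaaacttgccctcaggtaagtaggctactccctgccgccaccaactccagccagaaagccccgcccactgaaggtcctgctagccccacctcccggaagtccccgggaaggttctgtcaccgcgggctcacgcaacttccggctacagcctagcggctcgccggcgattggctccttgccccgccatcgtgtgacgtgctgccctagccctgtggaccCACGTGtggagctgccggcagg
Pes1: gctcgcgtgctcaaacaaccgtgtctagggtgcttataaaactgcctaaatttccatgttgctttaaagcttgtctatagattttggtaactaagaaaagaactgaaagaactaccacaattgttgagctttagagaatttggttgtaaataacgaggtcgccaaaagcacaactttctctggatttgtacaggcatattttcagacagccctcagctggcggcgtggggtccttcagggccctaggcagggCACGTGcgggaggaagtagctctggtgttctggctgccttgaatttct
Ddx21: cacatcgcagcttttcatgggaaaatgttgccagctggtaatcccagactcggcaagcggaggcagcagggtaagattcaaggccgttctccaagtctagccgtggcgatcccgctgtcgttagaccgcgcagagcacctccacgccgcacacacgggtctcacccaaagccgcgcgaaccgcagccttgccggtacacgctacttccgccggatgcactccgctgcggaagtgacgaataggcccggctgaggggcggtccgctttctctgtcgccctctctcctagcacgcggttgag
The motif began 60 bases before the start of transcription in Nop2, and 28 and 2 bases after it in Ltv1 and Pes1. A match in these letters describes the sequence alone and was not tested as a binding site.

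Of the 33 measured genes, 21 fell from E8.5 to E12.5, 12 did not pass the test and none rose. LIMMA with Benjamini-Hochberg adjustment over all probes called 14 of the 33 genes lower at E10.5 than at E8.5, against 7.77% of all symbols. It called 20 lower at E12.5 than at E10.5, against 7.29% of all symbols, and 21 lower at E12.5 than at E8.5, against 14.9%. No gene of the 33 was called higher in any of the 3 comparisons, where 8.08%, 9.06% and 14.7% of all symbols were called higher, and none was higher at an unadjusted p under 0.05 either. The median log2FC of the 33 genes was -0.37, -0.50 and -0.96, beside -0.00, -0.01 and -0.01 for all symbols. Counted over probes, 20, 24 and 29 of 51 were lower, beside 5.8%, 4.51% and 11% of all probes. Brightness raises the chance of a call, and among all symbols with a mean signal of at least 50 the shares called lower were 16.4%, 17.4% and 30.3%.

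**Figure D1:**
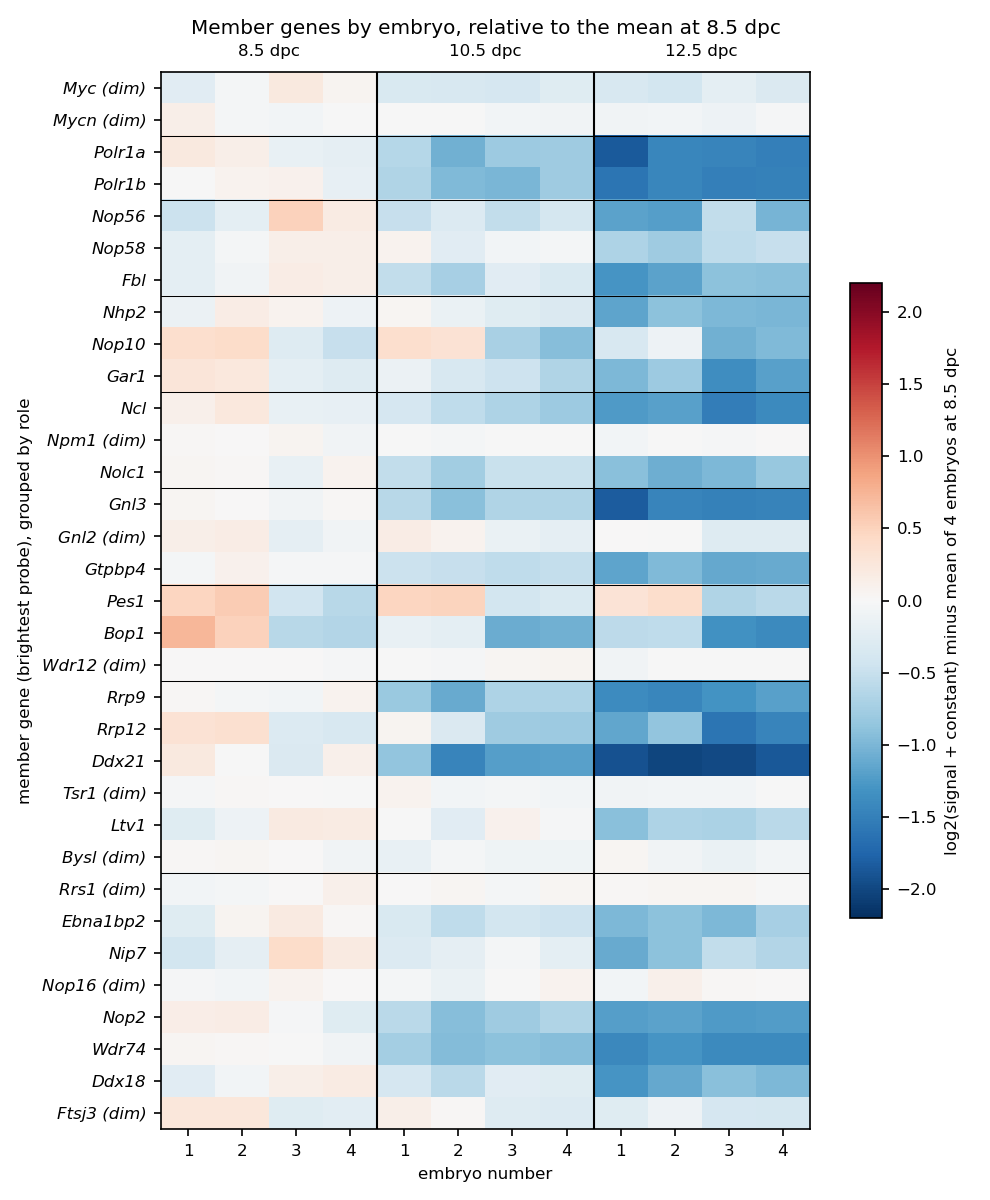
Level of the 33 measured genes in each of the 12 embryos (columns), as log2(signal + constant) minus the gene's mean over the 4 embryos at E8.5, with rows grouped by role and dim probes marked. Blue spreads from E8.5 to E12.5 in the brighter genes, most deeply in Ddx21, while Pes1 and Bop1 split by embryo number within each stage.

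In 13 genes both steps were called: Polr1a, Polr1b, Fbl, Ncl, Nolc1, Gnl3, Gtpbp4, Rrp9, Ddx21, Ebna1bp2, Nop2, Wdr74 and Ddx18. In 7 genes (Nop56, Nop58, Nhp2, Gar1, Rrp12, Ltv1 and Nip7) only the second step was called, and in Myc only the first. The other 12 genes were called in neither, and 9 of them were dim, leaving Nop10, Pes1 and Bop1. With the replicate number as a block, the first step was also called lower for Nop56, Gar1 and Rrp12, and the net change for Bop1 and Ftsj3. All 4 embryos of the later stage lay below all 4 of the earlier in 13 of 33 genes for the first step, 19 for the second and 21 for the net change, beside 8.69%, 8.24% and 14.9% of all symbols. Among symbols with a mean signal of at least 50 the shares were 16.1%, 16% and 26.9%. Gnl3, Gtpbp4 and Wdr74 were called lower in both steps in every one of the 26 alternative settings.

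Myc was measured by a dim probe, whose signal fell in the first step. Its signals in embryos 1 to 4 were 21.69, 43.40, 74.49 and 55.72 at E8.5, 12.47, 11.21, 10.19 and 18.65 at E10.5, and 10.58, 6.35, 23.64 and 15.04 at E12.5. All 4 embryos at E10.5 lay below all 4 at E8.5, and the embryos at E12.5 overlapped those at E10.5. The log2FC was -0.33 ± 0.07 (SE, adjusted p = 0.00122) in the first step and 0.01 ± 0.07 (SE, adjusted p = 0.985) in the second. Embryo 1 at E8.5 was the lowest of its stage, and on the left sides alone the first step was -0.27 (adjusted p = 0.0861). The other Myc probe had a mean signal of -21.6 and gave no call.

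Mycn encodes the MYC protein best known from the embryonic nervous system. Its 1 probe lay at or below 0 in 23 of the 24 arrays, with embryo signals of 1.07, -12.64, -13.89 and -9.77 at E8.5 and -14.54, -13.56, -17.37 and -10.82 at E12.5, so these arrays do not measure its course. For the same reason the test of its change against that of Myc, given at the end, is not interpreted.

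Polr1a and Polr1b encode the 2 largest subunits of RNA polymerase I, the enzyme that copies the ribosomal DNA. The Polr1a signals in embryos 1 to 4 were 3624, 3393, 2776 and 2701 at E8.5, 1949, 1433, 1721 and 1746 at E10.5, and 776, 1063, 1057 and 1017 at E12.5. Every embryo lay below all embryos of the stage before, and the mean fell from 3124 ± 455 (SD, n = 4) to 1712 ± 213 and 978.4 ± 136. The log2FC was -0.82 ± 0.10 (SE, adjusted p = 4.19e-06) and -0.74 ± 0.10 (SE, adjusted p = 1.64e-05). The Polr1b signals were 924, 985, 1000.1 and 808 at E8.5, 538, 414, 401 and 496 at E10.5, and 223, 266, 246 and 251 at E12.5, again without overlap between stages. At E12.5 the mean was 26.6% of that at E8.5, with a log2FC of -0.85 ± 0.07 and -0.66 ± 0.07 in the 2 steps.

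The box C/D particles carry the 2′-O-methyltransferase fibrillarin, encoded by Fbl, on a core that includes NOP56 and NOP58. Fbl signals in embryos 1 to 4 were 8386, 9204, 10982 and 10715 at E8.5, 6690.3, 5833, 8159.8 and 7661 at E10.5, and 3890.0, 4216, 5188 and 5099 at E12.5. The stages did not overlap, and the log2FC was -0.46 ± 0.11 (SE, adjusted p = 0.00466) and -0.61 ± 0.11 (SE, adjusted p = 0.000289). With each array scaled to its 75th percentile, the first step of Fbl was -0.49 (adjusted p = 0.0516). Nop56 signals were 768, 951, 1662 and 1303 at E8.5, 757, 896, 732 and 824 at E10.5, and 427, 414, 746 and 495 at E12.5. At E8.5 they ranged over more than the difference between E8.5 and E10.5, and embryo 3 at E12.5 lay within the range of E10.5. The net log2FC of Nop56 was -0.99 ± 0.16 (SE, adjusted p = 5.53e-05), but its second step of -0.56 ± 0.16 (SE, adjusted p = 0.0295) lost its call when any 1 of 6 embryos was left out (adjusted p up to 0.124). Its first step, -0.43, passed with the replicate number as a block (adjusted p = 0.0251). Nop58 stayed near its first level, with means of 2898 ± 339 and 2745 ± 268 (SD, n = 4), and then fell to 1819 ± 169, a log2FC of -0.56 ± 0.09 (SE, adjusted p = 4.07e-05).

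The box H/ACA particles convert uridine to pseudouridine, and their proteins NHP2, NOP10 and GAR1 also belong to telomerase. None of the 3 genes was called in the first step by the model without a replicate or array set block. Nhp2 signals in embryos 1 to 4 were 1702, 2097, 1982 and 1749 at E8.5, 1933, 1673, 1551 and 1515 at E10.5, and 770.5, 949, 893 and 872 at E12.5. The embryos at E8.5 and E10.5 overlapped and all 4 at E12.5 lay below them, with a second step of -0.84 ± 0.11 (SE, adjusted p = 4.74e-06). Gar1 signals were 6593, 6392, 4645 and 4542 at E8.5, 4964, 4209, 3965 and 3421 at E10.5, and 2682, 3072, 2121 and 2397 at E12.5, and the second step was -0.69 ± 0.16 (SE, adjusted p = 0.00464). The first step of Gar1, -0.40, passed with the array sets as a block (adjusted p = 0.000106) and when the replicate number was the block (adjusted p = 0.0167). Nop10 signals were 1638, 1653, 1002 and 908 at E8.5, 1632, 1548, 805 and 663 at E10.5, and 922, 1115, 596 and 609 at E12.5. At every stage embryos 1 and 2 lay above embryos 3 and 4, and the net log2FC of -0.63 ± 0.36 did not pass the test (adjusted p = 0.279). With the 4 array sets as a block, the net fall of Nop10 passed (adjusted p = 2.28e-06), and within single sets it ranged from -0.78 to -0.48 with adjusted p from 0.00653 to 0.00843.

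Ncl encodes nucleolin, an abundant nucleolar RNA-binding protein, and Nolc1 a partner of the small nucleolar ribonucleoproteins. The Ncl signals were 2334, 2569, 1964 and 1946 at E8.5, 1642, 1440.3, 1363 and 1211 at E10.5, and 843, 877, 699 and 768 at E12.5. No embryo overlapped between stages, and the mean at E12.5 was 36.2% of that at E8.5. The log2FC was -0.60 ± 0.13 (SE, adjusted p = 0.00321) and -0.74 ± 0.13 (SE, adjusted p = 0.000395). Both steps were also called with the replicate or the array set block and within each array set. On the right sides alone neither step was called, and with the mean of all Ncl probes the second was not. The other Ncl probe, with a mean signal of 42.7, was called in no comparison. The Nolc1 signals were 538, 546, 457 and 556 at E8.5, 319, 256, 332 and 334 at E10.5, and 219, 184, 201 and 239 at E12.5, also without overlap, and its second step of -0.38 ± 0.09 (SE, adjusted p = 0.00488) was the smallest among the 20 called. Npm1, for the chaperone nucleophosmin, was measured by 1 probe that lay at or below 0 in all 24 arrays.

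The nucleolar GTPase genes Gnl3 and Gtpbp4 gave some of the most even falls. Gnl3 encodes nucleostemin, found in stem cells and dividing cells, and GTPBP4 joins the precursor of the large subunit. Gnl3 signals in embryos 1 to 4 were 10180.2, 9885, 9259 and 10019.8 at E8.5, 6408, 5134, 6150.1 and 6160.3 at E10.5, and 2678, 3498, 3444 and 3489 at E12.5. Every stage was separate, and the mean fell from 9836 ± 403 (SD, n = 4) to 5963 ± 566 and then to 3277 ± 400. The log2FC was -0.71 ± 0.07 (SE, adjusted p = 1.47e-07) and -0.84 ± 0.07 (SE, adjusted p = 1.02e-08). The second Gnl3 probe fell by 1.41 and 0.64 on the log2 scale in the 2 steps. Gtpbp4 signals were 2249.5, 2486, 2281 and 2297 at E8.5, 1636, 1609, 1535 and 1590.5 at E10.5, and 978, 1128, 996 and 1015 at E12.5, and its SE of 0.04 in each step was small beside the log2FC of -0.51 and -0.58. Gnl2, the related GTPase gene, was dim, with embryo signals from 12.53 to 60.76. It was not called without a replicate or array set block, whereas it was with the array sets as a block (net log2FC -0.14, adjusted p = 0.00625).

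PES1, BOP1 and WDR12 form the PeBoW complex, which is needed to process the RNA of the large subunit. No gene of it passed a test between stages in the model without a replicate or array set block. These blocks changed the result for Bop1 and, in 1 step, for Pes1. Bop1 signals in embryos 1 to 4 were 794, 659, 251 and 256 at E8.5, 378, 348, 148 and 155 at E10.5, and 244, 245, 102 and 89.81 at E12.5. Embryos 1 and 2 lay above embryos 3 and 4 at every stage, yet within each of these pairs the later stage lay below the earlier one. The log2FC from E8.5 to E12.5 was -0.97 ± 0.35 (SE, adjusted p = 0.0501). With the 4 array sets as a block the same change gave an adjusted p of 4.6e-10, and within single sets it ranged from -1.35 to -0.61 with adjusted p from 0.000125 to 0.000999. The replicate number as a block also called it (adjusted p = 0.00127).

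Pes1 showed the same split between embryos, and its net change did not pass the test. Its signals were 746, 799, 345 and 321 at E8.5, 751, 768, 359.9 and 399.5 at E10.5, and 659, 707, 288 and 305 at E12.5, and at each stage the gap between the pairs of embryos exceeded the differences between the stage means. The net log2FC was -0.14 ± 0.30 (SE, adjusted p = 0.844), and within single sets it ranged from -0.29 to -0.05, none of which passed. Its second step, -0.19, passed with the array sets as a block (adjusted p = 0.0426). Pes1 was the one brighter gene with a first step above 0, at 0.05 ± 0.30 (SE). The probe for Wdr12 lay at or below 0 in all 24 arrays.

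**Figure D2:**
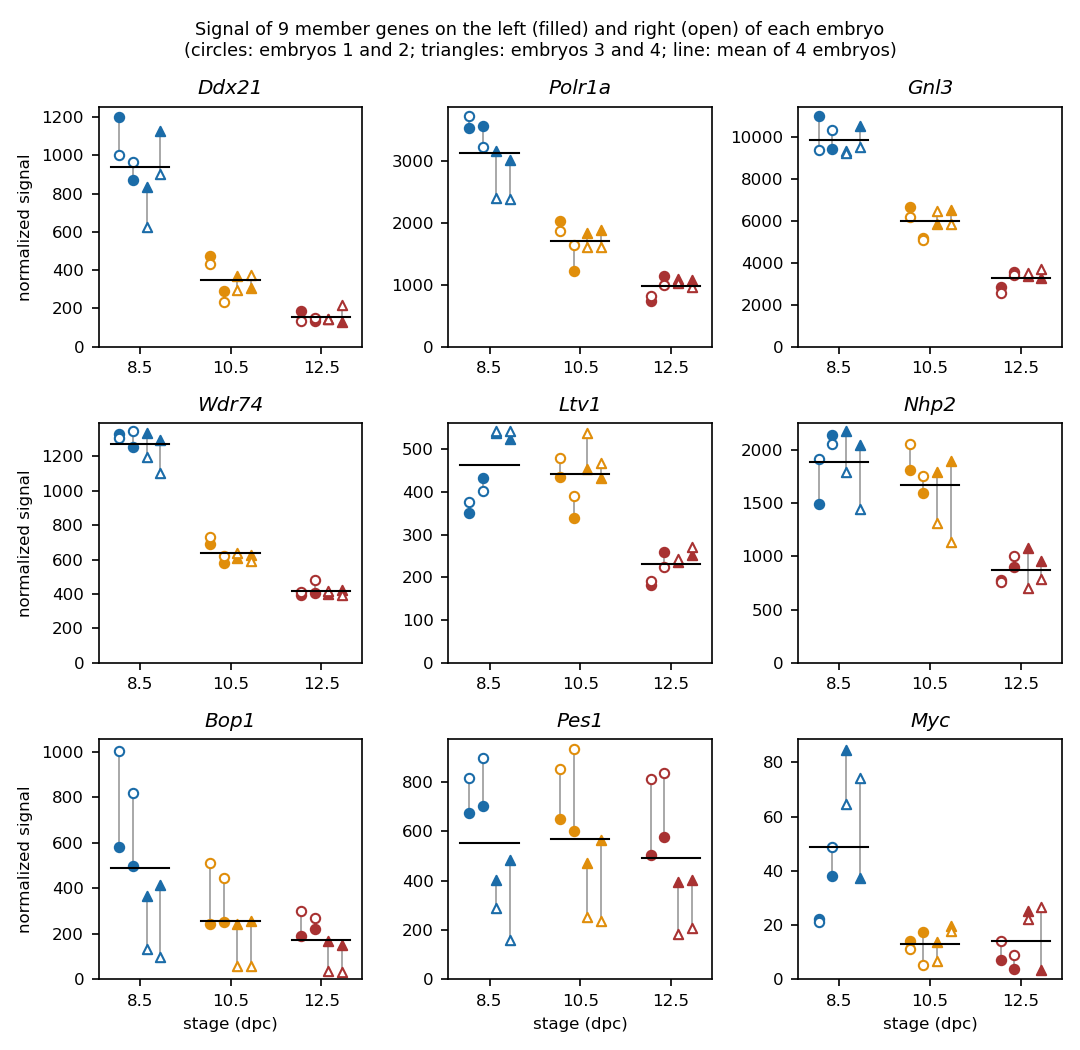
Normalized signal of 9 genes on the left (filled) and right (open) side of each embryo at the 3 stages, joined by a line within an embryo, with circles for embryos 1 and 2, triangles for embryos 3 and 4 and a bar at the mean of 4 embryos. Ddx21, Polr1a, Gnl3 and Wdr74 step down at each stage, Ltv1 and Nhp2 mainly from E10.5 to E12.5, and Bop1 and Pes1 split by embryo pair and side.

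Among the genes for the small subunit, Ddx21 showed the largest fall of all 33 genes. DDX21 is an RNA helicase of the nucleolus. Its signals in embryos 1 to 4 were 1102, 919, 730.4 and 1014 at E8.5, 455, 263, 332 and 342 at E10.5, and 158, 140.4, 145 and 173 at E12.5. The stages did not overlap, and the mean went from 941.2 ± 159 (SD, n = 4) to 347.9 ± 79.8 and 154 ± 14.6, which left 16.4% of the first level. The log2FC was -1.18 ± 0.11 (SE, adjusted p = 5.05e-08) and -0.76 ± 0.11 (SE, adjusted p = 2.49e-05), and the second Ddx21 probe, with a mean signal of 26.7, was lower in both steps without a call.

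Rrp9 encodes a protein of the U3 small nucleolar ribonucleoprotein, which acts in the first cuts of the precursor. Its signals were 911, 873, 866 and 952 at E8.5, 456, 353, 522 and 516 at E10.5, and 269.8, 259, 288 and 323 at E12.5, with no overlap between stages and a log2FC of -0.82 ± 0.08 (SE, adjusted p = 2.15e-07) and -0.51 ± 0.08 (SE, adjusted p = 0.000116). LTV1, an assembly factor of the small subunit, took another course. Ltv1 signals were 363, 417, 540.4 and 533 at E8.5, 458, 365, 496 and 450.2 at E10.5, and 187, 241, 239 and 262 at E12.5. The embryos of the first 2 stages overlapped, and all 4 at E12.5 lay below them, with a log2FC of -0.05 ± 0.08 in the first step and -0.67 ± 0.08 (SE, adjusted p = 2.18e-06) in the second. Rrp12 fell in the second step by 0.81 on the log2 scale (SE 0.23, adjusted p = 0.0194), a call lost when any 1 of 4 embryos was left out (adjusted p up to 0.0996). The first step of Rrp12, -0.46, passed with the array sets as a block (adjusted p = 0.000181) and when the replicate number was the block (adjusted p = 0.0399). Tsr1 and Bysl were dim and not called.

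Of the 8 genes for the large subunit, the 5 brighter ones all fell from E8.5 to E12.5. WDR74 takes part in maturation of the large subunit, and Wdr74 signals in embryos 1 to 4 were 1318, 1299, 1265 and 1199 at E8.5, 709.8, 600.2, 624 and 609.8 at E10.5, and 403, 445, 408 and 408 at E12.5. Its stages were widely apart for their spread, with SDs of 52.2, 50.2 and 19.5, and a log2FC of -0.88 ± 0.05 (SE, adjusted p = 4.68e-12) and -0.50 ± 0.05 (SE, adjusted p = 3.48e-08). Nop2 encodes a methyltransferase of the large subunit RNA, and its signals were 413, 421, 353 and 285 at E8.5, 203, 133, 163 and 187 at E10.5, and 90.37, 94.83, 84.70 and 86.21 at E12.5. The mean at E12.5 was 24.2% of that at E8.5, and the log2FC was -0.74 ± 0.08 (SE, adjusted p = 2.45e-07) and -0.47 ± 0.08 (SE, adjusted p = 9.55e-05). Ebna1bp2 fell by 0.44 and 0.46 on the log2 scale in the 2 steps on its brightest probe. Its other probes were called lower in the first step and not in the second. Nip7 fell by 0.61 in the second step alone. The helicase gene Ddx18 fell by 0.71 in the second step. Its first step, -0.37 ± 0.12 (SE, adjusted p = 0.049), lost its call in 8 of the 12 fits that left out 1 embryo and with each array scaled to its 75th percentile (adjusted p = 0.111). The dim genes Rrs1, Nop16 and Ftsj3 were not called without a replicate or array set block, and the net log2FC of the first 2 was 0.02. That of Ftsj3, -0.29, passed when the replicate number was the block (adjusted p = 0.0289).

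**Figure D3:**
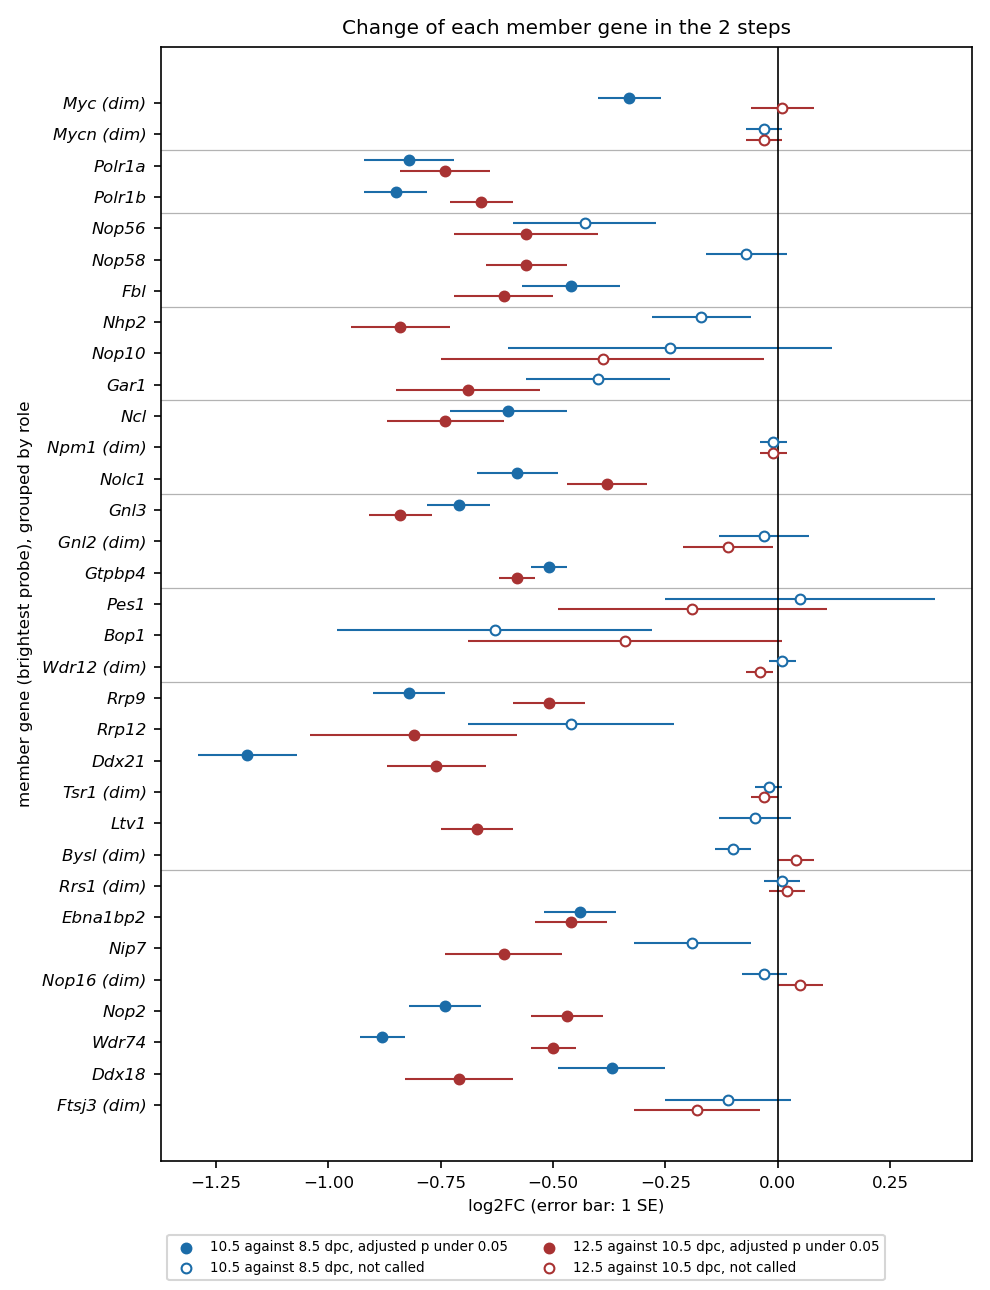
log2FC of the 33 genes in the first step (E10.5 against E8.5, blue) and the second step (E12.5 against E10.5, red), with bars of 1 SE, filled where the adjusted p was under 0.05 and with genes grouped by role. Filled points lie on the left of 0 without exception, and the dim genes other than Myc sit near 0.

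Whether a gene changed by a different amount in the 2 steps was tested directly. The second step was the more negative in 2 of the 33 genes, beside 3.59% of all symbols. These were Nhp2, with a difference of -0.67 ± 0.19 (SE, adjusted p = 0.0377), and Ltv1, with -0.62 ± 0.14 (adjusted p = 0.00851). The first step was the more negative in 1 gene, Wdr74, with 0.38 ± 0.08 (adjusted p = 0.00378), beside 4.31% of all symbols. The call of Nhp2 was lost when any 1 of 7 embryos was left out, and that of Ltv1 without embryo 3 at E10.5 (adjusted p = 0.0616). The call of Wdr74 held with each embryo left out. On the right sides alone and within each array set, the calls of Nhp2, Ltv1 and Wdr74 were all lost. With the replicate number as a block, 4 genes (Nhp2, Ltv1, Nop58 and Nip7) fell more in the second step, and 2 (Wdr74 and Myc) more in the first. The 2 bright probes of Gnl3 disagreed, with a difference of -0.13 ± 0.12 (SE, adjusted p = 0.804) for the brightest and 0.77 ± 0.21 (SE, adjusted p = 0.0315) for the second, so no order of its steps can be given.

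Other probes of the same genes gave no call in the opposite direction. The 18 further probes belonged to 13 genes. In the first step 15 of them had the sign of the brightest probe and 6 were called the same way, in the second step 14 and 4, and over both steps 17 and 8. Many of these probes were dim. Among the brighter ones, the second probe of Nolc1 fell by 0.97 and 0.55 in the 2 steps, and the second probe of Polr1a by 0.76 and 0.38. The 2 other Ebna1bp2 probes, with mean signals of 119.8 and 63.8, were called lower in the first step. In the second step they were not called, with a log2FC of -0.03 and 0.04. The second Gar1 probe, with a mean signal of 163.1, was not called in the second step either (log2FC -0.42).

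Other genes of ribosome assembly also fell, and 1 rose in a single step. The counts stand beside 7.77%, 7.29% and 14.9% of all symbols called lower in the first step, the second step and over both, and 16.4%, 17.4% and 30.3% of the brighter symbols. From a wider list, 3 of 11 further RNA polymerase I and ribosomal DNA factors fell in the first step, 4 in the second and 7 over both, with Polr1e (net log2FC -1.30), Tcof1 (-0.96), Polr1d (-0.72) and Taf1d (-0.70) falling most. Of 46 further factors of the small subunit, 15 fell in each step and 25 over both, led by Utp4 (-1.53), Noc4l (-1.46), Rcl1 (-1.34) and Heatr1 (-1.19). Ddx52 alone rose in the first step (0.34) and then fell in the second (-0.61). Of 42 further factors of the large subunit, 24 fell in the first step, 18 in the second and 32 over both, led by Rrp1b (-1.87), Ppan (-1.87), Ddx27 (-1.59) and Rrp15 (-1.45). No gene of these 3 lists rose from E8.5 to E12.5. Their median net log2FC was -0.47, -0.32 and -0.62, beside -0.96 for the 33 genes.

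Few genes for the proteins of the finished ribosome were called. Of 36 cytosolic ribosomal protein genes none was called in the first step. There 15.9% of all symbols, and 33.4% of those with a mean signal of at least 50, were called in either direction. In the second step 1 was called lower (Rps19, -0.67) and over both steps 6, of which Rps19 (-1.13) and Rps24 (-1.03) fell most. The 6 of 36 stand beside 14.9% of all symbols called lower over both steps, and the single call in the second step beside 7.29%. Of the 36 genes, 33 had a mean signal of at least 50. Among all symbols that bright, 30.3% were called lower over both steps and 17.4% in the second. Their median log2FC was -0.08, -0.13 and -0.17 for the first step, the second step and the net change. At an unadjusted p under 0.05 (LIMMA), 2 of the 36 were lower in the first step, 3 in the second and 10 over both, and 0 were higher in each. The difference between these genes and the 33 was not tested.

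Of 27 other genes classed as MYC targets, 11 fell and 2 (Ccnd2 and Eif4e) rose in the first step, beside 7.77% and 8.08% of all symbols, and 12 fell in the second, beside 7.29%. Over both steps 16 fell, beside 14.9%, led by Ldha (-1.89), Cdc25a (-1.56), Srm (-1.45) and Rcc1 (-1.37), and Ccnd2, for a G1 cyclin, was higher (0.47). Of the 27 genes, 24 had a mean signal of at least 50. Among all symbols that bright, 16.4%, 17.4% and 30.3% were called lower in the first step, the second step and over both. The shares called higher were 17%, 17.3% and 26.5%. The partners and rivals of MYC changed in both directions. Max, the common partner, fell in the first step (-0.58), whereas Mxd3 (1.01) and Mxd4 (0.38), which bind MAX in place of MYC, rose, and Mxd4 rose again in the second step (0.73). Mycl, a bright member of the MYC family outside the 36 genes, rose over both steps (0.54, adjusted p = 0.0439). Over both steps 3 of 10 genes of this network (Mycl, Mxd3 and Mxd4) rose and 3 (Max, Mga and Mlxip) fell, beside 14.7% and 14.9% of all symbols. Of these 10 genes 7 were bright, and among the bright symbols the shares were 26.5% and 30.3%.

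**Figure D4:**
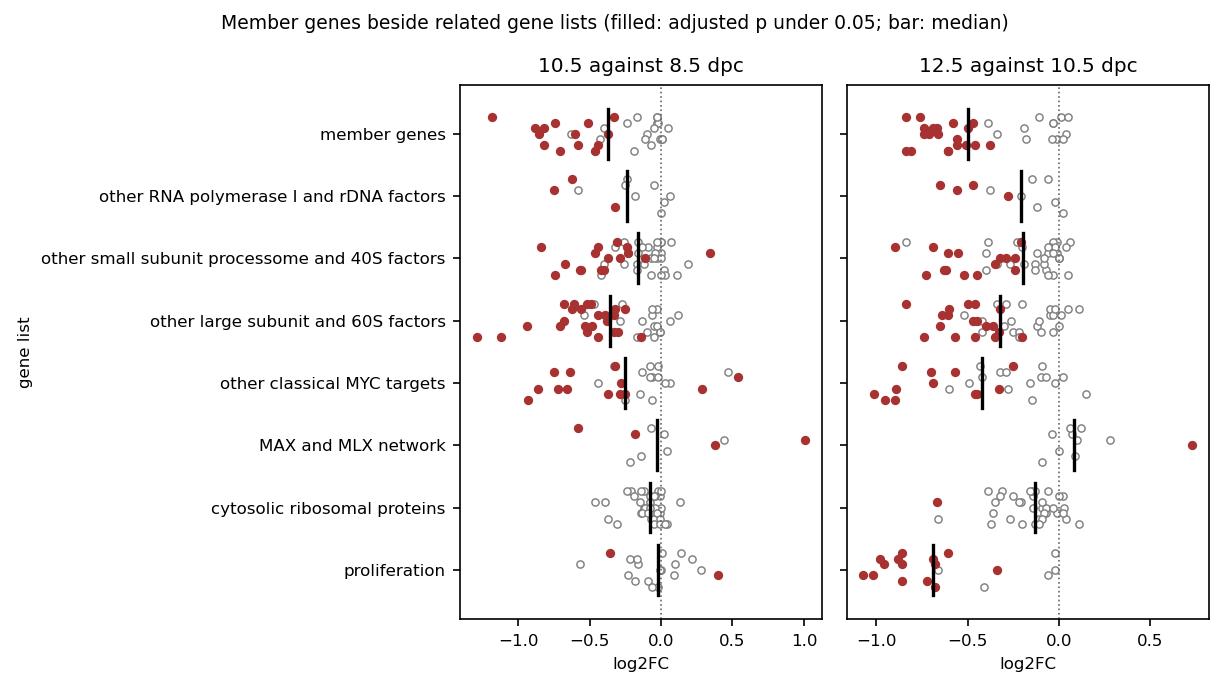
log2FC of single genes (points) in the 33 measured genes and 7 related lists, in the first step (left panel) and the second (right panel), filled where the adjusted p was under 0.05, with a bar at each list's median. The medians of the assembly factor lists lie left of 0 in both panels, that of the ribosomal proteins lies close to 0, and that of the proliferation list shifts in the second step.

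Markers of cell division and of several cell types moved over the same stages. Their counts stand beside 8.08% and 9.06% of all symbols called higher in the first and second step, and 7.77% and 7.29% called lower. Among symbols with a mean signal of at least 50 the shares were 17% and 17.3% higher, and 16.4% and 17.4% lower. Of 19 proliferation genes, 1 (Rrm2) rose in the first step, 1 (Mcm5) fell, and 14 fell in the second, with 7 falling more in the second step than in the first. Their summed signal over the 4 embryos was 31770 to 35280 at E8.5, 29010 to 31790 at E10.5 and 12560 to 19050 at E12.5. Of 15 neuronal genes, 11 rose in the first step and 10 in the second, and their summed signal went from 603.1 to 903 at E8.5 to 4376 to 8246 and then 23680 to 35100. The neuronal marker Nefl stayed at or below 0, as did Ccnb2 among the proliferation genes. Erythroid markers rose in the first step (5 of 9) and fell in the second (6 of 9), and 7 of 10 heart and muscle markers fell in the first step, from a summed signal of 878.2 to 8046 down to 153.6 to 184.9. Of 9 endothelial markers, 4 fell in the first step and 1 in the second, and their summed signal was 6085 to 7172 at E8.5, 1764 to 3854 at E10.5 and 1957 to 3035 at E12.5. Of 9 mesenchyme and neural crest markers, 2 fell and 1 rose in the first step and 2 rose in the second, with summed signals of 3552 to 3975, 1328 to 2570 and 953.7 to 3185. Of 10 neural progenitor markers, 5 rose in the first step and 2 fell in the second, with summed signals of 5774 to 6502, 10180 to 13890 and 8465 to 11850. Surface ectoderm markers, 7 in all, ranged most widely at E12.5, from 0.449 to 3086. The part of these cell types in the fall of the ribosome-building genes was not tested.

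Left and right were compared within embryos. No gene of the 33 was called over all stages, none at any single stage, and none showed a side difference that changed between stages, and the same held for all 46643 probes (0% called by LIMMA with Benjamini-Hochberg adjustment). At an unadjusted p under 0.05 there were 4 of 51 probes (7.84%), beside 8.88% of all probes. A B value over 1, the log odds that a probe differs, was reached by 0 of 51 probes and by 47 in the whole series.

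The side differences went opposite ways in the pairs of embryos. In embryos 1 and 2, the right side was the higher in 6 of 6 embryos for Nop10, Gar1, Ncl, Pes1, Bop1 and Rrp12, and in embryos 3 and 4 the left side was the higher in 6 of 6 for the same genes. The mean left minus right difference of Nop10 was -0.53 in the former and 1.30 in the latter on the log2 scale. That of Bop1 was -0.55 and 1.01, of Pes1 -0.41 and 0.76, and of Rrp12 -0.22 and 0.76. Fbl went the other way, with 0.17 and -0.24. Fitted alone, embryos 1 and 2 gave 9 genes called, 7 of them higher on the right, beside 9.44% of all probes, and embryos 3 and 4 gave 14 genes, 11 of them higher on the left, beside 18.6% of all probes. Each pair of embryos has its own left and right array set, so side and array set cannot be told apart within a pair. The brightest Gnl3 probe differed by 0.07 and -0.01 between the sides in the 2 pairs.

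**Figure D5:**
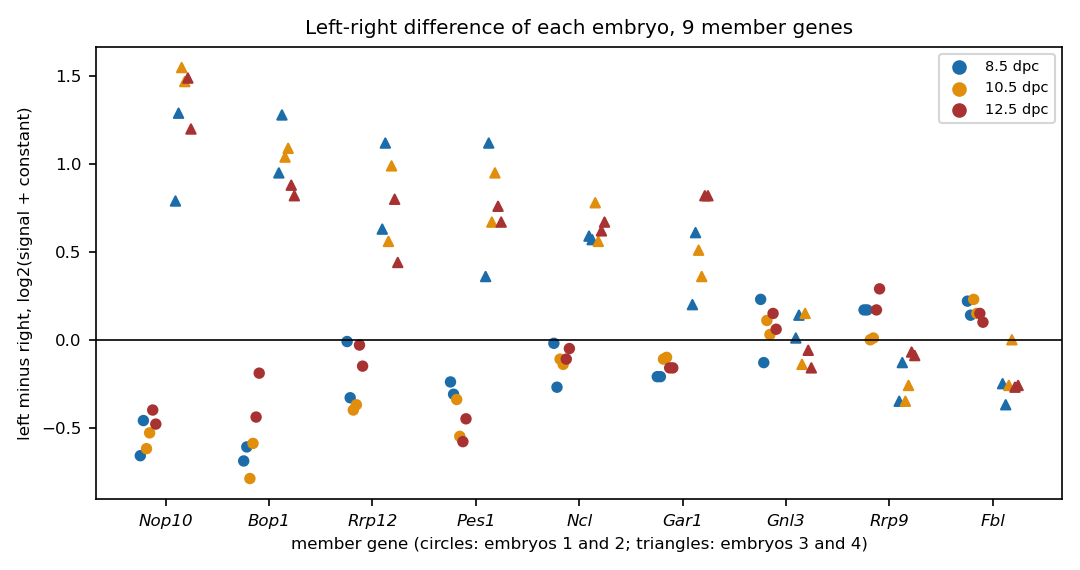
Left minus right difference of log2(signal + constant) in each of the 12 embryos for 9 genes, with circles for embryos 1 and 2, triangles for embryos 3 and 4 and colours for stage. Nop10, Bop1, Rrp12, Pes1, Ncl and Gar1 lie below 0 in the former and above 0 in the latter at all 3 stages, Rrp9 and Fbl lie at or above 0 in the former and at or below 0 in the latter, and Gnl3 lies near 0.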

How the data were processed

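RNA from both sides of 12 embryos, 4 at each stage, was measured on 24 arrays. The stage, side and embryo of each array came from the sample labels. The deposited values are linear probe intensities from which the authors had subtracted the background with scanner software, named as GenomeStudio in the submitters' processing notes. They were not quantile normalised: the median intensity per array ran from 3.1 to 9.3, and 37.6% to 45.2% of probes lay at or below 0. The number of arrays limits the precision. The stage p-values mix the spread between embryos with that between the sides of an embryo, whose correlation was low (0.0893). The left-right p-values measure the spread of the left-right difference. With 1 mean per embryo, 6 called values lost their call. These were the first step of Ddx18, the second step of Nop56, Rrp12 and Nip7, and the difference between steps of Nhp2 and Ltv1. A further 72 value columns, named by BeadChip position alone, could not be tied to samples and were not used. They name 4 BeadChips of 6 arrays each.

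A constant of 119.5 was added so that the lowest value, -103.5, became 16, and the arrays were quantile normalised and log2 transformed. The linear model for stages (limma 3.58.1, R 4.3.3) held fixed terms for stage and for side, treated the embryo as random (statmod 1.5.0, correlation 0.0893), and used eBayes and Benjamini-Hochberg adjustment over all 46643 probes; a call is an adjusted p under 0.05. For left against right, each embryo was a fixed term. Symbols came from the platform annotation (32794 probes with 1 symbol, 55 with several, 13794 with none). No 2 arrays were identical (highest correlation 0.995). The fit was tested on simulated data.

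The genes, the lists and the tests were chosen with earlier results of these data known. Every gene is accounted for through its brightest probe. Values by embryo are given for Myc, Mycn, the genes with the largest and smallest log2FC, and the 2 genes of each role with the largest net change. Nop10, Ltv1 and further genes were added after their values were seen. From the wider lists up to 4 called genes are named by size, with those called in the opposite direction. Deviations of embryos with the same number correlated across stages at 0.294 to 0.79 (12 pairs, median 0.669). Those of embryos with different numbers ranged more widely, from -0.792 to 0.821 (36 pairs, median -0.533). The number alone therefore does not set which embryos deviated together. The replicate number was also fitted as a block. Alternatives changed the scaling, the constant, the treatment of dim probes, the probe rule, the sides, the blocks and the embryos used. Fits within a single array set were added after the data were seen.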

Additional observations from a re-analysis of the deposited data

Results flagged for a closer look

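In 6 of the 99 groups of 4 embryos examined, 1 embryo lay apart from the other 3, and chance alone gives about 1 in 20. At E12.5, embryo 1 was the lowest for Polr1a (776.5, the others 1017 to 1063) and for Gnl3 (2678, the others 3444 to 3498). Embryo 2 at E12.5 was the highest for Wdr74 (444.6, the others 402.6 to 408). The remaining 3 were dim genes: Tsr1 in embryo 1 at E10.5 (11.52, the others -1.01 to 0.39), Npm1 in embryo 2 at E10.5 (-11.36, the others -8.57 to -8.17) and Wdr12 in embryo 1 at E12.5 (-27.06, the others -22.75 to -21.93).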

How the results depend on the processing

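Over 26 alternatives for the stage comparisons, no called gene changed sign: 1404 values kept their call and 102 lost it. Of the values not called, 171 changed sign, 74 gained a call and 1641 did neither. The number of genes lower in the first step was 13 to 15, in the second 18 to 20 and over both 21 to 22 with each embryo left out, and none was higher. On the right sides alone 12 genes were lower in the second step, beside 1.26% of all probes, and on the left sides alone 18, beside 4.77%. With the replicate block the counts were 17, 20 and 23, beside 7.93%, 7.16% and 14.3% of all probes, and with the 4 array sets as a block 18, 24 and 25, beside 8.89%, 9.01% and 15.3%. The net fall lost its call only for Rrp12, on the right sides alone, and for Myc within 3 of the single array sets. Within the left sides of embryos 1 and 2, 14 called values lost their call, among them both steps of Polr1a. Within the left sides of embryos 3 and 4, 10 did, among them the second step of Polr1b. Within the right sides, 10 did in embryos 1 and 2 and 9 in embryos 3 and 4. The second steps of Ddx21, Nolc1, Nop2, Ebna1bp2, Nop58 and Nop56 were each lost within more than 1 set. So were the first steps of Myc, Ebna1bp2 and Ddx18.

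Counts of genes whose steps differed were the least stable. Genes falling more in the second step numbered 4 with the replicate block and with the array sets as a block, 1 with signals below 16 raised to 16, 0 with embryo means, on either side alone and within each array set, and 0 to 3 with each embryo left out. Genes falling more in the first step numbered 2 with either block and with raised signals, 0 on the right sides alone and within 3 of the 4 array sets, and 1 to 2 with each embryo left out. Fits within a set have 2 arrays a stage, which lowers the number of calls that can be made. The change of Mycn minus that of Myc was tested by exact permutation over embryos but is not interpretable, since the Mycn signal was not above background. This difference was 0.30 in the first step, -0.04 in the second and 0.26 over both (adjusted p = 0.214, 0.514 and 0.214 by that permutation). It ranged, with each embryo left out, from 0.21 to 0.42 in the first step, -0.07 to 0.01 in the second and 0.17 to 0.38 over both, with adjusted p from 0.0429 (without embryo 1 at E8.5) to 0.943. The left-right count of 0 became 9 in embryos 1 and 2 alone and 14 in embryos 3 and 4 alone. The cause was not tested. Dim probes limit what can be said of 10 genes.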
